A study of Mus musculus with 11 samples.

Results

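Neurodevelopmental chromatin and transcription regulators are 35 genes whose human counterparts carry known links to disorders of brain development, together with the enzymes that add and remove DNA methylation. They were taken by gene symbol from a given list, and all 35 were found among the 24421 gene rows of the count files and among the 14982 genes with enough counts to be tested. RNA was sequenced from the hippocampus of mouse offspring aged 14 to 18 weeks. In the PM group (6 libraries) the pregnant mothers had received particulate matter by the nose, at 200 µg per kg, when 9, 12 and 15 days pregnant, and in the Vehicle group (5 libraries) normal saline. Pups were born on day 21. The first set of deposit holds replicates 1 to 3 of both groups, and the second set holds PM replicates 4 to 6 and Vehicle replicates 4 and 5. The labels name no genotype, strain, sex or litter and do not say what the particulate matter was made of, so offspring of 1 litter could be among the replicates. The p-values therefore measure only the spread between these libraries, which may in part be technical.

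Chromatin regulators set how open the DNA around a gene is and whether it can be transcribed. Remodellers such as the CHD proteins and the BAF complex move nucleosomes with the energy of ATP, methyltransferases and acetyltransferases add chemical marks to histones, and demethylases and deacetylases take them off. DNA methyltransferases write methyl groups on cytosine and TET enzymes oxidise them. Many of them stay active in adult neurons, and loss of a single copy of many of the genes causes intellectual disability or autism in people.

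Library composition differed between the groups before any gene was compared. Gene counts were about 10938500 to 17763900 in PM libraries and about 6012120 to 12496700 in Vehicle libraries. Of all counts, 18.8% to 34.0% had no feature in PM libraries (29.3% to 34.0% in the second set and 18.8% to 21.4% in the first), against 60.9% to 62.0% in Vehicle libraries. The 35 genes together took 0.263% to 0.492% of gene counts in PM libraries and 0.721% to 0.805% in Vehicle libraries. Markers of neurons summed to 6048 to 7559 CPM in PM and 7397 to 8265 CPM in Vehicle libraries, and 5 of 9 were lower and 2 higher in PM. CPM are counts scaled to a common library size. Markers of immature neurons summed to 61.7 to 85.4 CPM in PM and 158 to 179.6 CPM in Vehicle libraries (3 of 5 lower, 1 higher), and those of astrocytes to 2936 to 5472 CPM in PM and 6869 to 7273 CPM in Vehicle libraries (2 of 7 lower, 3 higher). Markers of microglia summed to 287 to 433 CPM in PM and 222 to 247 CPM in Vehicle libraries (6 of 8 higher), those of oligodendrocytes to 4047 to 9299 CPM in PM and 3734 to 4751 CPM in Vehicle libraries (5 of 6 higher), and those of their precursors to 167 to 235 CPM in PM and 173 to 197 CPM in Vehicle libraries (1 of 4 higher, 1 lower). Endothelial markers summed to 97.9 to 188 CPM in PM and 97.7 to 118 CPM in Vehicle libraries (2 of 5 higher), and choroid plexus markers to 32.5 to 2487 CPM in PM and 70.4 to 1245 CPM in Vehicle libraries (1 of 4 tested lower). No marker was at 0 in all libraries. Over all tested genes 36.4% were lower and 32.7% higher. With the trend on transcript length and GC content removed, as described below, these shares were 28.6% and 34.5%. The markers lower and higher were then 4 and 1 for neurons, 1 and 0 for immature neurons, 0 and 4 for astrocytes and 0 and 7 for microglia. They were 0 and 5 for oligodendrocytes, 1 and 1 for their precursors, 0 and 3 for endothelial cells and 0 and 0 for choroid plexus. The part of composition, cell types or RNA selection in the results was not tested. In bulk tissue, fewer cells of a type and less RNA per cell cannot be told apart.

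Most of the regulators were lower in the hippocampus of PM offspring. Of the 35 genes, 31 fell (36.4% of all tested genes were lower), 2 rose (32.7% of all tested genes were higher) and 2 did not pass the test. Means are given with the SD over 6 PM and 5 Vehicle libraries. The members that rose were Ehmt2, which encodes the histone methyltransferase G9a, and Hdac2, a class I histone deacetylase. The median log2 fold change of the 35 genes was -1.05, beside -0.04 over all tested genes. In 28 genes the highest PM library was still under the lowest Vehicle library (28.1% of tested genes), in 2 the lowest PM library was over the highest Vehicle library (24.3%), and in Chd7, Setd1a, Dnmt1, Dnmt3a and Kdm6b the groups overlapped.

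Long transcripts in general were also mostly lower in PM. The regulators are long, with a median longest transcript of 8187 bases beside 3160 bases over all tested genes, and 31 of the 35 belonged to the longest of 5 length groups (5164 bases or more). In that group 75.7% of all genes were lower and 5.59% higher, with a median log2 fold change of -0.86. The 31 regulators in it had a median of -1.16, 29 were lower and 0 higher. Across the 35 genes the log2 fold change ran with transcript length at a Spearman correlation of -0.55, and across 14851 tested genes with a known length at -0.49. These are descriptions across genes, which share libraries and are not independent replicates. All fold changes were therefore also computed after a smooth trend on transcript length and GC content had been removed from each library, and both values are given for each regulator below. With the trend removed 18 of the 35 genes were lower (28.6% of tested genes), 7 were higher (34.5%) and 10 did not pass, and the median was -0.22 beside 0.05 over all tested genes. All 18 were also lower as scaled (22% of tested genes were lower both ways), whereas Chd2, Chd7, Chd8 and Tcf4 were lower as scaled and higher with the trend removed (3.29% of tested genes).

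**Figure D1:**
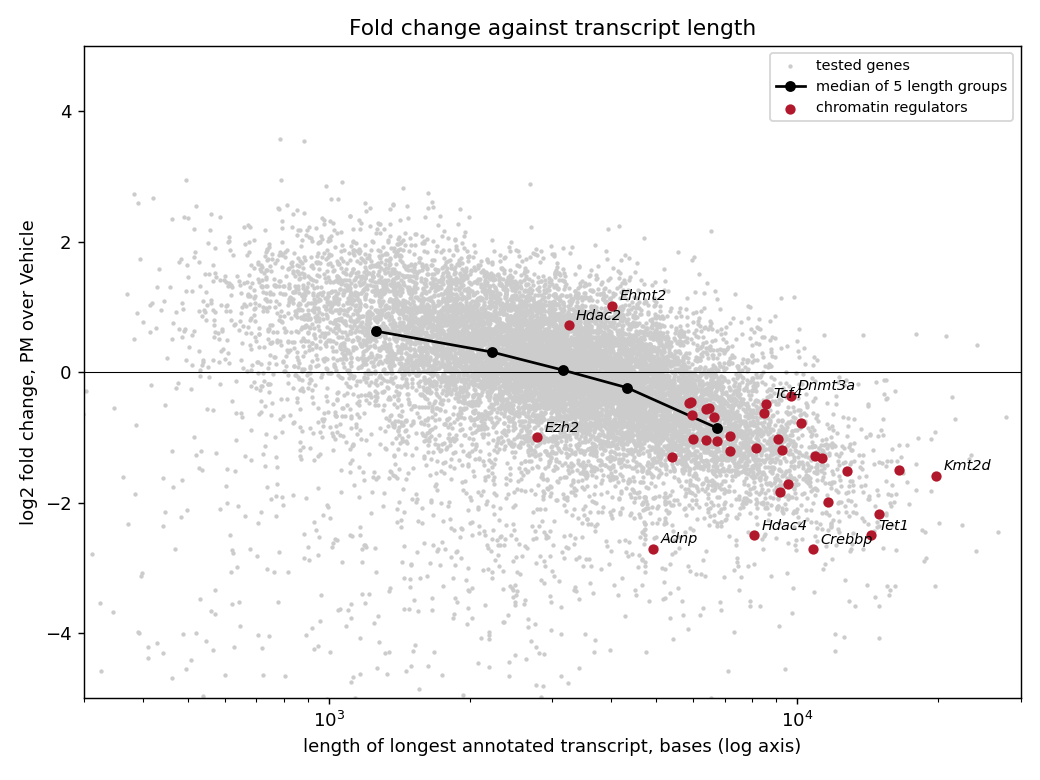
Log2 fold change of PM over Vehicle (vertical axis) against longest transcript length in bases on a log axis (horizontal), with tested genes as grey points, the 35 regulators as red points and the medians of 5 length groups as a black line, as scaled. Most regulators sit at the long end, where the median of all genes was -0.86, and a few genes lie outside the axes.

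Sequences around an annotated start of 4 regulators that moved in opposite directions are shown next as examples. They do not stand for all regulators. Promoter windows from 250 bases before to 50 bases after the annotated start were taken from RefSeq (GRCm38.p6), where 28 of the 35 genes matched. The first listed start of each gene was used. For Crebbp and Hdac4 the whole window lies inside the gene of the GENCODE M21 annotation. Crebbp reaches base 4213997 of chromosome 16 and Hdac4 base 92195699 of chromosome 1. Windows of other regulators lie inside their gene as well, such as that of Setd5, which held 1 CpG pair. The windows are therefore not all upstream of the gene. The windows below are those of Crebbp and Hdac4, which fell strongly, and of Ehmt2 and Hdac2, which rose. Capitals mark GGGCGG, the GC box bound by Sp1-type factors, or its reverse complement CCGCCC.
Crebbp, chr16:4213355-4213654, minus strand: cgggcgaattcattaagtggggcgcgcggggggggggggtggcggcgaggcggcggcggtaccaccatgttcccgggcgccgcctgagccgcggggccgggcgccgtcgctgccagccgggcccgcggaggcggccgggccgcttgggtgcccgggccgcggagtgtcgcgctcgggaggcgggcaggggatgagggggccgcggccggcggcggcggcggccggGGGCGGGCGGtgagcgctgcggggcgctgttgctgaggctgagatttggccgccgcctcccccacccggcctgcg
Hdac4, chr1:92180292-92180591, minus strand: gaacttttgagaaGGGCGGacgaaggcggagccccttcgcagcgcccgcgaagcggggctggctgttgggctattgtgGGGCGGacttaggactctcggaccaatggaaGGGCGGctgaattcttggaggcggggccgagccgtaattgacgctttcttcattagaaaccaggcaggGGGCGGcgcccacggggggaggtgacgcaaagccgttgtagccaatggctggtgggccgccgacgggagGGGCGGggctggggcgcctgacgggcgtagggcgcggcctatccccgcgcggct
Ehmt2, chr17:34898224-34898523, plus strand: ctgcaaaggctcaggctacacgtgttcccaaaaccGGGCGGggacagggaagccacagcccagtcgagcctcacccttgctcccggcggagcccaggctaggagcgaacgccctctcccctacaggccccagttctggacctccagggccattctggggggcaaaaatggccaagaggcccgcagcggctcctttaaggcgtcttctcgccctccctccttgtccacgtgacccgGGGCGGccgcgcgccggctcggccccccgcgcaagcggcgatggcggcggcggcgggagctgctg
Hdac2, chr10:36974294-36974593, plus strand: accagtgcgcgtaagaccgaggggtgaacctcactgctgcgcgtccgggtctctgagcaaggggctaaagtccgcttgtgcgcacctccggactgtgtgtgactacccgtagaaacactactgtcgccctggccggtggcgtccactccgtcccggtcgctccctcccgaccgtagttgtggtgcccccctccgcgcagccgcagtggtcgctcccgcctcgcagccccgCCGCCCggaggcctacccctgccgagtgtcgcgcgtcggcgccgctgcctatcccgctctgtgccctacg
GGGCGG on either strand stood in 23 of the 28 windows (82.1%), beside 62.6% of 11278 windows of all tested genes. Crebbp held 2 overlapping copies, Hdac4 5, Ehmt2 2 and Hdac2 1, so genes that fell and genes that rose both carried it. CpG pairs had a median of 29.5 per window in the regulators (range 1 to 61) and 20 in all tested genes (range 0 to 65). The median GC content of the windows was 69.5% in the regulators and 60.7% in all tested genes. Its part in the motif and CpG counts was not tested. TATAAA was in 0 of the 28 windows, beside 7.12% of all, and the cAMP response element TGACGTCA in 0, beside 3.15%. The ETS motif CCGGAAG was in 2 (7.14%, beside 16.2%) and the E-box CACGTG in 1 (3.57%, beside 9.88%). All motifs were searched on both strands. A match describes letters in the window and is not a binding site.

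Crebbp and Ep300 encode CBP and p300, the paired acetyltransferases that CREB and many other factors recruit to enhancers, and CBP is the gene of Rubinstein-Taybi syndrome. Both fell. Crebbp had 46.7, 37.4, 29.8, 75.2, 84.8 and 82.8 CPM in PM replicates 1 to 6, against 397, 308, 415, 322 and 309 CPM in Vehicle replicates 1 to 5. No PM library reached the lowest Vehicle library, and within PM the first 3 replicates were the lowest. The fitted level was 6.58-fold lower in PM (log2 fold change -2.72, SE 0.23, edgeR adjusted p = 2.82e-07), and as scaled Crebbp and Adnp, at -2.70, had the largest falls of the 35 genes. Ep300 had 42.6 CPM in the lowest PM library, a median of 59.9 CPM and 78.3 CPM in the highest, against 199.7, 189.5, 215, 185 and 173 CPM in Vehicle replicates 1 to 5. The groups did not overlap here either (log2 fold change -1.72, SE 0.13, edgeR adjusted p = 7.42e-08). Once the trend was removed the log2 fold changes were -1.58 for Crebbp and -0.65 for Ep300, both past the threshold (adjusted p = 1.47e-06 and 6.88e-06). Per base of transcript, the log2 ratio of Crebbp to Ep300 was -0.69 to 0.10 in PM libraries and 0.52 to 0.81 in Vehicle libraries, without overlap. This and all other ratios per base divide counts by transcript length only, and the length and GC trend was not removed from them.

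The deacetylases moved in opposite directions. Hdac4 is a class IIa enzyme that shuttles between cytoplasm and nucleus in neurons, and Hdac2 is the class I enzyme of the NuRD, Sin3 and CoREST corepressors. Hdac4 had 9.53 CPM in the lowest PM library, a median of 14.1 CPM and 16.6 CPM in the highest, against 82.4, 73.9, 85.2, 75.7 and 72.0 CPM in Vehicle replicates 1 to 5. The highest PM library lay far under the lowest Vehicle library (5.67-fold lower, log2 fold change -2.50, SE 0.13, edgeR adjusted p = 3.87e-09). Hdac2 had 71.9 CPM in the lowest PM library, a median of 90.2 CPM and 117 CPM in the highest, against 51.6, 58.1, 51.3, 56.7 and 60.8 CPM in Vehicle replicates 1 to 5. The highest Vehicle library stayed under the lowest PM library (1.64-fold higher, log2 fold change 0.71, SE 0.11, edgeR adjusted p = 6.80e-05). Both calls were kept with the trend removed, at -1.70 for Hdac4 and 1.05 for Hdac2. The log2 ratio of Hdac2 to Hdac4 per base was 3.68 to 4.93 in PM libraries and 0.59 to 1.07 in Vehicle libraries. Hdac2 is among the shorter members, with a longest transcript of 3250 bases, against 8100 bases for Hdac4.

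The SET-domain methyltransferases were the largest group, with 8 of 10 lower, 1 higher and 1 not passing (36.4% of all tested genes were lower and 32.7% higher). Of the 10, 4 were lower, 1 higher and 5 not passing with the trend removed (28.6% of all tested genes lower and 34.5% higher). Ehmt1 and Ehmt2 encode GLP and G9a, which act as a heterodimer in dimethylation of histone H3 lysine 9, and loss of a copy of EHMT1 in people causes Kleefstra syndrome. Ehmt2 had 183 CPM in the lowest PM library, a median of 241 CPM and 299 CPM in the highest, against 111, 113, 118, 117 and 114 CPM in Vehicle replicates 1 to 5. The groups did not overlap (2.02-fold higher in PM, log2 fold change 1.01, SE 0.11, edgeR adjusted p = 1.46e-06). Ehmt1 had 23.9 CPM in the lowest PM library, a median of 38.7 CPM and 50.2 CPM in the highest, against 60.4, 54.6, 57.1, 56.7 and 52.0 CPM in Vehicle replicates 1 to 5. The log2 fold change of Ehmt1 was -0.66 (SE 0.14, edgeR adjusted p = 0.00107), and the partners thus changed in opposite directions. Ehmt2 with the trend removed was still higher at 0.74, while Ehmt1 gave -0.086 and did not pass (adjusted p = 0.510). That value of Ehmt1 spans 0.25 in the second set and -0.34 in the first (edgeR adjusted p = 0.0464 and 0.00268). The log2 ratio of Ehmt2 to Ehmt1 per base was 3.12 to 3.50 in PM libraries and 1.44 to 1.69 in Vehicle libraries. Ehmt2 lies on chromosome 17 (34898469 to 34914052, plus strand) and Ehmt1 on chromosome 2 (24789928 to 24919614, minus strand) in GRCm38.

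Among the methyltransferases that mark active genes and enhancers, Kmt2c, Ash1l, Kmt2a, Kmt2d and Nsd1 fell. Kmt2c had 51.9 CPM in the lowest PM library, a median of 88.1 CPM and 101 CPM in the highest, against 358, 340.2, 366, 354 and 345 CPM in Vehicle replicates 1 to 5. Kmt2c (MLL3), the enhancer monomethyltransferase of histone H3 lysine 4, was 4.50-fold lower (log2 fold change -2.17, SE 0.14, edgeR adjusted p = 1.60e-08). Ash1l, which methylates histone H3 lysine 36, was 116 ± 14.5 CPM in PM and 466 ± 12.4 CPM in Vehicle libraries (SD, n = 6 and n = 5), a 3.98-fold fall (log2 fold change -1.99, SE 0.090, edgeR adjusted p = 1.74e-09). Both stayed lower with the trend removed, at -0.56 and -0.52. Kmt2d had 135, 82.6, 70.4, 400.5, 435 and 462 CPM in PM replicates 1 to 6, against 564, 529, 584, 545 and 499 CPM in Vehicle replicates 1 to 5. Kmt2d (MLL4), the gene of Kabuki syndrome, was below the Vehicle range in every PM library, far below in replicates 1 to 3 and nearer to it in replicates 4 to 6 (log2 fold change -1.59, edgeR adjusted p = 0.00320). Kmt2d did not pass with the trend removed (-0.33, adjusted p = 0.219), where it was higher in PM in the second set, at 0.49, and lower in the first, at -0.94 (adjusted p = 3.29e-04 and 4.30e-08).

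Kmt2a (MLL1), which maintains active marks at promoters, was 189.6 ± 89.7 CPM in PM and 461 ± 26.4 CPM in Vehicle libraries (log2 fold change -1.51), and Nsd1, the gene of Sotos syndrome, was 150.5 ± 16.9 CPM in PM and 422 ± 13.1 CPM in Vehicle libraries (-1.51). Their log2 fold changes were 0.029 and 0.015 with the trend removed and did not pass. For Kmt2a that value spans effects of opposite sign, 0.56 in the second set and -0.38 in the first (edgeR adjusted p = 1.44e-04 and 9.98e-04). Setd5, a SET-domain protein linked to intellectual disability, had a log2 fold change of -1.05 as scaled and gave -0.25 with the trend removed (edgeR adjusted p = 0.0459). For Setd5 the second set then gave 0.085 and did not pass (edgeR adjusted p = 0.396), against -0.51 in the first. Ezh2, the catalytic subunit of Polycomb repressive complex PRC2, had few counts and fell, at 5.43 ± 0.894 CPM in PM and 10.8 ± 1.52 CPM in Vehicle libraries (2.00-fold lower, edgeR adjusted p = 4.48e-05, with a log2 fold change of -0.80 once the trend was removed). Setd1a, a schizophrenia risk gene, was 75.0 ± 40.7 CPM in PM and 89.3 ± 4.78 CPM in Vehicle libraries, and its log2 fold change of -0.56, with PM replicates 1 to 3 below and 4 to 6 above all Vehicle libraries, did not pass (edgeR adjusted p = 0.0779). It passed at -0.77 without Vehicle replicate 4 (edgeR adjusted p = 0.0208) and at -0.79 without Vehicle replicate 5 (edgeR adjusted p = 0.0155). Once the trend was removed Setd1a gave -0.22 and did not pass (adjusted p = 0.283), with 0.42 in the second set and -0.72 in the first, both past the threshold (adjusted p = 0.00101 and 7.32e-07).

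All 3 TET dioxygenases, which oxidise 5-methylcytosine as a step of demethylation, fell (36.4% of all tested genes were lower). Tet1 had 7.13 CPM in the lowest PM library, a median of 9.08 CPM and 9.99 CPM in the highest, against 53.4, 54.8, 53.7, 44.1 and 48.9 CPM in Vehicle replicates 1 to 5. Tet1 was 5.67-fold lower (log2 fold change -2.50, SE 0.091, edgeR adjusted p = 9.72e-10), with no PM library near the Vehicle range. Tet2 had 28.8, 23.0, 19.4, 54.8, 57.7 and 52.9 CPM in PM replicates 1 to 6, against 134, 116, 131, 128 and 107 CPM in Vehicle replicates 1 to 5. Tet2 lay below Vehicle in every PM library, but less so in PM replicates 4 to 6 (log2 fold change -1.84, SE 0.22, edgeR adjusted p = 6.11e-06). Tet3 was 53.6 ± 11.5 CPM in PM and 129 ± 8.34 CPM in Vehicle libraries (log2 fold change -1.29). After the trend was taken out the log2 fold changes were -0.81 for Tet1, -0.57 for Tet2 and -0.28 for Tet3, and all 3 passed. For Tet2 the second set then gave 0.17 and did not pass (edgeR adjusted p = 0.200), against -1.15 in the first set. The log2 ratio of Tet1 to Tet3 per base was -3.31 to -2.44 in PM libraries and -1.89 to -1.66 in Vehicle libraries, without overlap, while that of Tet2 to Tet3 overlapped.

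Dnmt1, the maintenance enzyme, was 42.6 ± 8.16 CPM in PM and 57.3 ± 6.91 CPM in Vehicle libraries, with overlapping groups (log2 fold change -0.48, edgeR adjusted p = 0.00186), and did not pass with the trend removed (-0.094). Dnmt3a had 67.3, 54.0, 46.6, 109, 116 and 105 CPM in PM replicates 1 to 6, against 97.1, 99.2, 97.5, 94.2 and 94.4 CPM in Vehicle replicates 1 to 5. Dnmt3a, which writes the non-CG methylation that accumulates in maturing neurons, was below the Vehicle range in PM replicates 1 to 3 and above it in PM replicates 4 to 6. Its log2 fold change of -0.36 did not pass as scaled (edgeR adjusted p = 0.0747). It passed at -0.49 without Vehicle replicate 4 or 5 and at -0.41 without PM replicate 5 (edgeR adjusted p = 0.0252, 0.0227 and 0.0470). Dnmt3a was higher in PM with the trend removed, at 0.66 (adjusted p = 2.33e-04).

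The 5 BAF subunits, members of the SWI/SNF remodelling complex whose neuronal form is needed for dendrite growth, all fell as scaled. With the trend removed 3 of 5 were lower. Of all tested genes 36.4% were lower as scaled and 28.6% with the trend removed. All 5 subunits belonged to the longest length group, in which 75.7% of all genes were lower as scaled. Arid1b, the gene of Coffin-Siris syndrome, was 106 ± 16.2 CPM in PM and 264 ± 38.3 CPM in Vehicle libraries, with a log2 fold change of -1.32 (SE 0.13, edgeR adjusted p = 6.57e-07), and Arid1a, its alternative partner in the complex, was 132 ± 45.9 CPM in PM and 271 ± 30.8 CPM in Vehicle libraries (log2 fold change -1.16). Without the trend they were -0.23 and -0.59. The ATPases Smarca4 (BRG1) and Smarca2 (BRM) had smaller log2 fold changes of -0.56 and -0.47, and -0.20 and 0.11 with the trend removed, where the value of Smarca2 did not pass. Bcl11a (CTIP1), a zinc-finger protein of cortical and hippocampal neurons that binds the complex, was 116 ± 21.8 CPM in PM and 227 ± 7.71 CPM in Vehicle libraries (log2 fold change -1.02, and -0.18 with the trend removed, which did not pass).

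The 3 CHD remodellers fell as scaled (36.4% of all tested genes were lower). All 3 were higher in PM without the trend (34.5% of all tested genes were higher). Chd8 had 78.6 CPM in the lowest PM library, a median of 123 CPM and 156 CPM in the highest, against 175, 169.5, 178, 179.8 and 175 CPM in Vehicle replicates 1 to 5. Chd8, among the genes most often mutated in autism, gave -0.63 as scaled (SE 0.13, edgeR adjusted p = 5.56e-04) and 0.42 with the trend removed (adjusted p = 5.50e-04). Chd2, an epilepsy gene, was 52.9 ± 7.47 CPM in PM and 106 ± 2.61 CPM in Vehicle libraries (-1.02 as scaled and 0.15 with the trend removed, edgeR adjusted p = 0.0433 for the second value). Of its bases, 634 are shared with a transcript of 1810026B05Rik on the same strand. Chd7, the gene of CHARGE syndrome, was 29.8 ± 10.1 CPM in PM and 47.5 ± 3.93 CPM in Vehicle libraries, with overlapping groups (-0.78 as scaled and 0.34 with the trend removed, edgeR adjusted p = 0.0433 for the second value). With the trend removed neither Chd2 (0.094) nor Chd7 (0.084) passed in the first set. The direction of the 3 CHD remodellers therefore depends on whether the trend is removed.

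Adnp encodes a homeodomain zinc-finger protein and Pogz a zinc-finger protein that binds heterochromatin protein HP1, and both are among the recurrently mutated autism genes. Adnp had 0.931 CPM in the lowest PM library, a median of 1.99 CPM and 3.98 CPM in the highest, against 11.3, 14.4, 9.85, 12.6 and 13.7 CPM in Vehicle replicates 1 to 5. No PM library reached the Vehicle range (6.52-fold lower, log2 fold change -2.70, SE 0.23, edgeR adjusted p = 2.55e-07). These values rest on few reads, 21, 31, 13, 29, 31 and 45 counts in PM replicates 1 to 6 against 143, 159, 109, 77 and 125 counts in Vehicle replicates 1 to 5. The files also list a readthrough gene, Dpm1-adnp, that in the GENCODE M21 annotation shares 4393 bases with the 4932-base Adnp transcript on the same strand and had 0 counts in every library, so that reads over the shared exons may have been assigned to neither gene. The level of Adnp is therefore uncertain. Ambiguous reads took 1.21% to 1.42% of all counts in PM and 0.538% to 0.582% in Vehicle libraries. All counts here include those with no feature, 18.8% to 34.0% in PM and 60.9% to 62.0% in Vehicle libraries. These shares therefore cannot show whether the groups lost Adnp reads to a different degree. That was not tested, and the fold change of Adnp is uncertain as well. With the trend removed the log2 fold change of Adnp was -2.18 (edgeR adjusted p = 1.76e-06), computed with the full length of 4932 bases. Pogz was 58.3 ± 13.4 CPM in PM and 115 ± 5.70 CPM in Vehicle libraries (log2 fold change -1.04, and -0.28 with the trend removed, edgeR adjusted p = 0.0155 for the second value).

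The transcription factors Tcf4, Foxp1 and Myt1l and the Polycomb-associated protein Auts2 all fell as scaled (36.4% of all tested genes were lower). Auts2 had 88.3 CPM in the lowest PM library, a median of 127 CPM and 152 CPM in the highest, against 303, 275, 321, 289 and 259.7 CPM in Vehicle replicates 1 to 5. Auts2 was 2.46-fold lower (log2 fold change -1.30, SE 0.13, edgeR adjusted p = 1.16e-06) and stayed lower with the trend removed (-1.05). Tcf4 had 540.0 CPM in the lowest PM library, a median of 591 CPM and 643 CPM in the highest, against 835, 889, 851, 796 and 816 CPM in Vehicle replicates 1 to 5. Tcf4, the basic helix-loop-helix factor of Pitt-Hopkins syndrome, was the most abundant regulator, and its log2 fold change was -0.49 as scaled but 0.84 with the trend removed (edgeR adjusted p = 5.55e-07). Foxp1, a forkhead factor linked to language and intellectual disability, was 91.2 ± 11.6 CPM in PM and 179 ± 7.66 CPM in Vehicle libraries (-0.98 as scaled, and 0.053 with the trend removed, which did not pass). Myt1l, a repressor of non-neuronal genes in neurons, was 166 ± 29.3 CPM in PM and 385 ± 8.26 CPM in Vehicle libraries (-1.20 as scaled and -0.22 with the trend removed). On the opposite strand, exons of Dap3 overlap 35 bases of Ash1l and exons of 4931403E22Rik overlap 6 bases of Smarca2. The sources used here give no strand setting for the counting, so reads over those bases cannot be told apart.

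Med13l, a subunit of the Mediator kinase module, was 91.7 ± 20.4 CPM in PM and 204 ± 14.7 CPM in Vehicle libraries, with a log2 fold change of -1.19 (SE 0.14, edgeR adjusted p = 3.73e-06), and was lower with the trend removed at -0.20. Kdm6b, the demethylase of histone H3 lysine 27, was split between the sets. Kdm6b had 37.5, 32.7, 21.9, 71.6, 84.6 and 89.4 CPM in PM replicates 1 to 6, against 78.1, 80.9, 86.2, 68.5 and 65.8 CPM in Vehicle replicates 1 to 5. PM replicates 4 to 6 lay within or above the Vehicle range and PM replicates 1 to 3 below it. The log2 fold change of -0.69 passed narrowly (edgeR adjusted p = 0.0458) and did not pass with the trend removed (-0.39, adjusted p = 0.0733), and the call was also lost without Vehicle replicate 1, 2 or 3 or PM replicate 1, 2, 3 or 4, where the log2 fold changes were -0.71 to -0.47 and the edgeR adjusted p 0.0547 to 0.120.

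**Figure D2:**
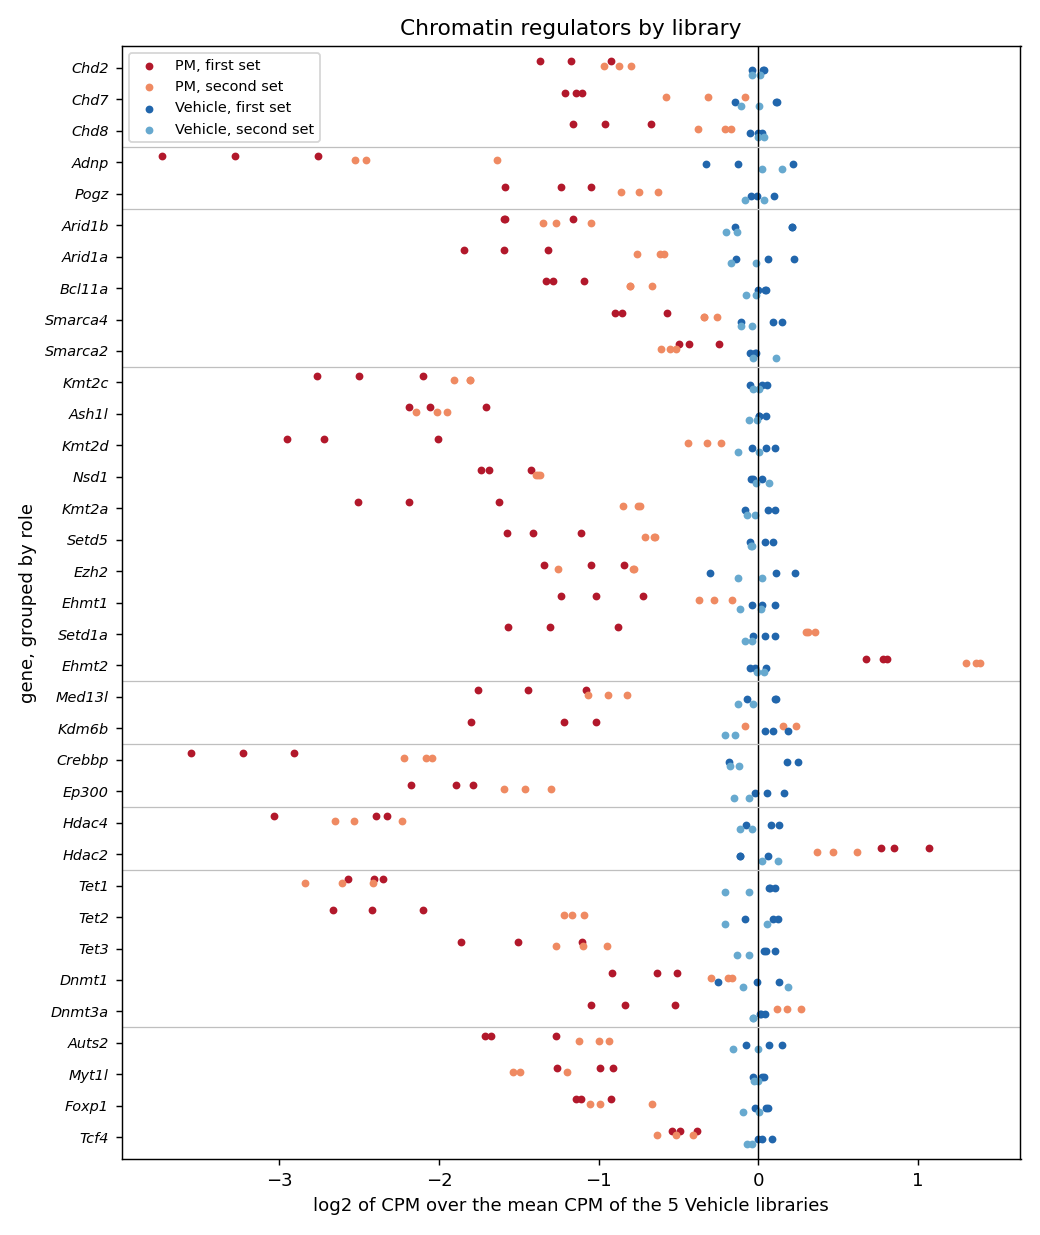
Each point is 1 library, PM in reds and Vehicle in blues with a shade for each set, placed by the log2 of its CPM over the mean CPM of the 5 Vehicle libraries (horizontal axis), with the 35 genes in rows grouped by role. Ehmt2 and Hdac2 lie above the Vehicle mean in all 6 PM libraries, and 28 genes lie below all 5 Vehicle libraries in all 6.

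**Figure D3:**
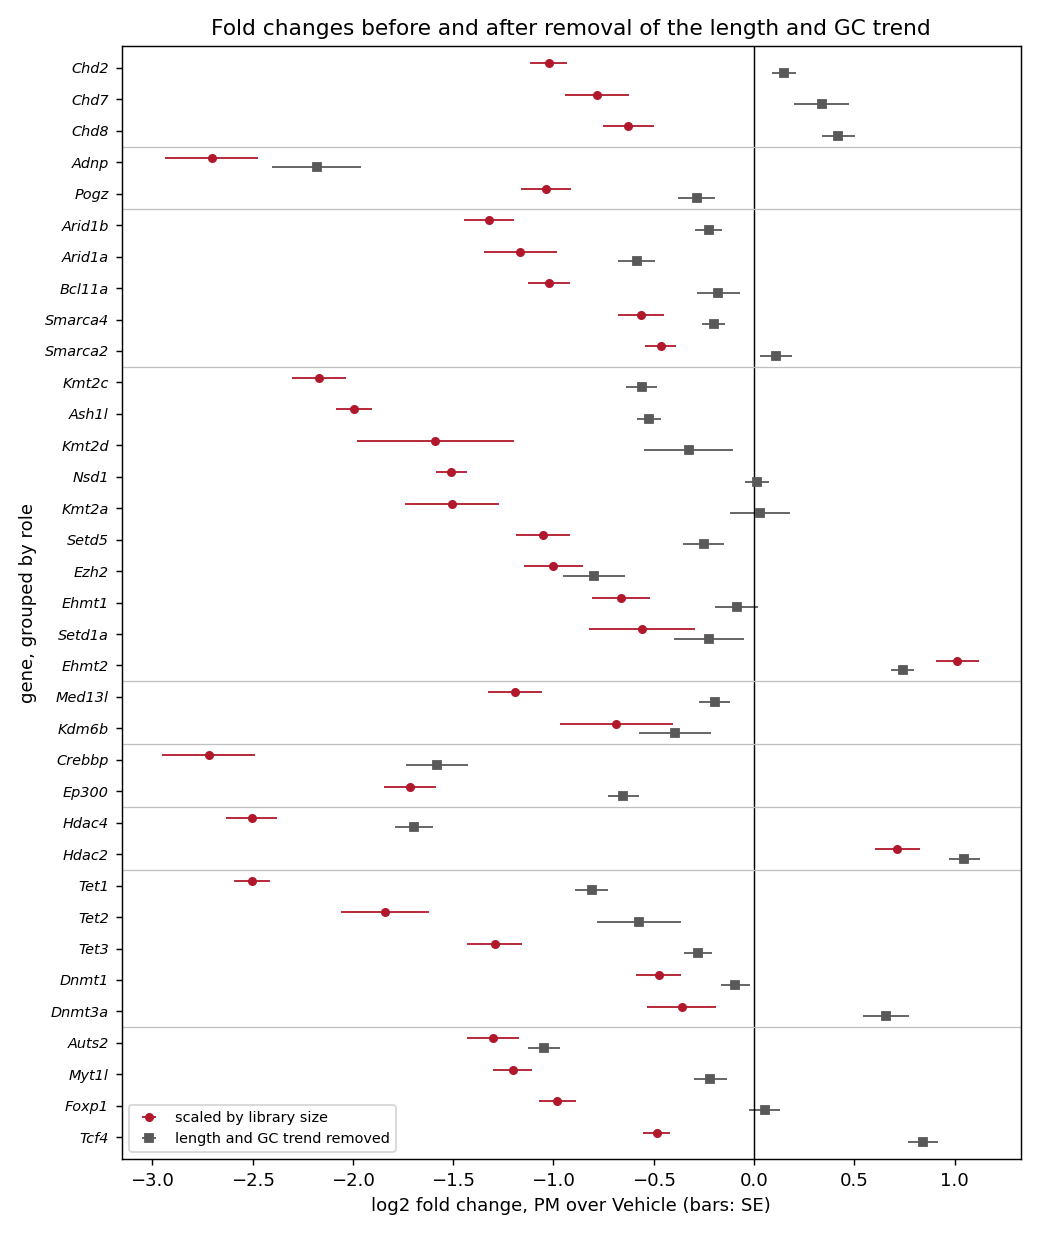
Log2 fold change of PM over Vehicle with its standard error for each of the 35 regulators, as scaled and after removal of the length and GC trend. Of the 35 genes 31 were lower as scaled and 18 with the trend removed, and Chd2, Chd7, Chd8 and Tcf4 changed from lower to higher.

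Levels between genes were compared as counts per kilobase of longest transcript, scaled to the same total in every library. On this scale Tcf4 was the highest regulator in both groups, at 211 ± 14.9 in PM and 352 ± 10.2 in Vehicle libraries (SD, n = 6 and n = 5). In PM libraries Ehmt2 came next, at 185 ± 51.4, with Smarca2 and Hdac2 after it at 109.7 ± 11.4 and 84.4 ± 10.1. In Vehicle libraries Auts2 and Myt1l came next, at 194 ± 17.3 and 193 ± 4.09, which differed by less than their spread. Leaving out Adnp, whose countable length is uncertain, Tet1 and Ezh2 were the lowest in Vehicle libraries. Tet1 was 1.88 ± 0.248 in PM and 12.8 ± 0.996 in Vehicle libraries and Ezh2 was 5.95 ± 1.23 in PM and 14.0 ± 1.97 in Vehicle libraries.

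**Figure D4:**
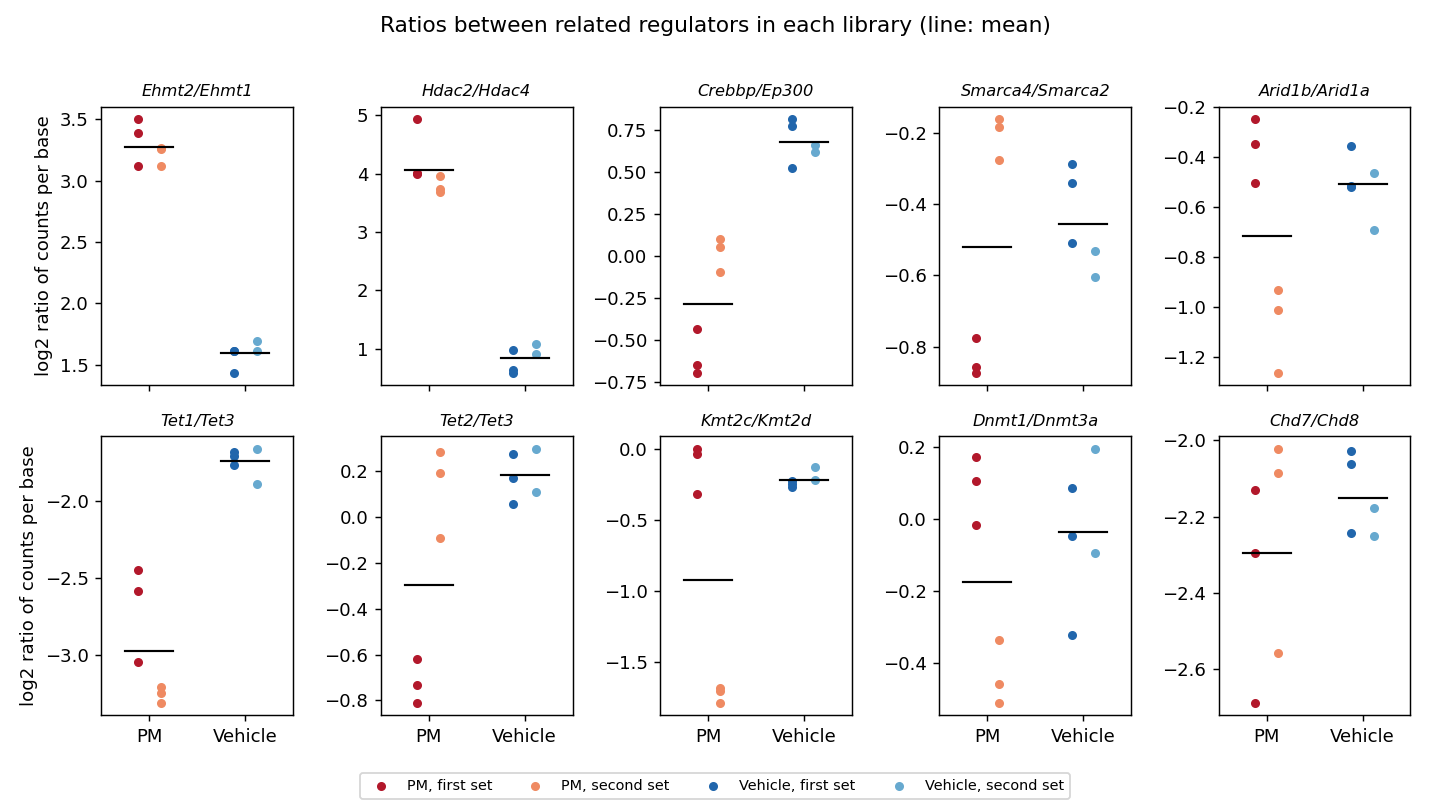
Log2 ratio of related genes per base of transcript in every library, with 1 panel per pair, PM libraries left, Vehicle libraries right and lines at the group means. The vertical scales differ between panels, and the length and GC trend was not removed from the ratios. Ehmt2 to Ehmt1 and Hdac2 to Hdac4 lie above, and Crebbp to Ep300 and Tet1 to Tet3 below, all Vehicle libraries in all 6 PM libraries.

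The remaining ratios of related genes overlapped between groups. The ratio of Kmt2c to Kmt2d was -1.79 to -0.0038 in PM libraries and -0.27 to -0.13 in Vehicle libraries, and PM replicates 4 to 6 averaged -1.73 and PM replicates 1 to 3 -0.12. Arid1b to Arid1a was -1.26 to -0.25 in PM libraries and -0.69 to -0.36 in Vehicle libraries. Smarca4 to Smarca2, Chd7 to Chd8, Tet2 to Tet3 and Dnmt1 to Dnmt3a overlapped as well.

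The size of the PM effect differed between the sets of deposit. In the second set 24 of the 35 regulators were lower (32.5% of tested genes) and 3 higher (32.3%), with a median of -0.73 beside 0.0082 over all tested genes. In the first set 33 were lower (38.9%) and 2 higher (32.1%), with a median of -1.38 beside -0.088. The same 24 were lower in both sets (26.2% of tested genes), and Ehmt2 and Hdac2 were higher in both (23.1%). Setd1a was the third gene higher in the second set, at 0.38, against -1.26 in the first. With the trend removed 11 genes were lower in both sets (17.8% of tested genes), namely Adnp, Arid1a, Kmt2c, Ash1l, Tet1, Tet3, Crebbp, Ep300, Hdac4, Auts2 and Ezh2. For Adnp the trend used the full transcript length, which may not be countable. Chd8, Ehmt2, Dnmt3a, Hdac2 and Tcf4 were higher in both (21.6%). Arid1b, Pogz, Setd5, Tet2, Smarca4 and Med13l, lower in the fit of both sets, then passed in the first set only. Myt1l passed as lower, and Chd2 and Chd7 as higher, in the second set only. Smarca2 (0.30) passed as higher, and Bcl11a (-0.46) and Kdm6b (-0.87) as lower, in the first set only.

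Tested directly, the PM effect was higher in the second set for 20 regulators (17.5% of tested genes) and lower for 1, Hdac2 (12.1%). The largest differences were those of Kmt2d, at -0.27 in the second set, against -2.54 in the first (adjusted p of the difference = 1.14e-04), Kdm6b, at 0.29 against -1.41 (adjusted p = 1.32e-04), and Setd1a (adjusted p = 4.65e-05). Crebbp was lower in both, at -1.96 against -3.30 (adjusted p = 4.52e-04). For Tet1 no difference passed the test, at -2.48 in the second set, against -2.52 in the first (difference 0.032, SE 0.17), nor for Ash1l, at -2.00 against -1.99 (difference -0.012, SE 0.16), nor for Hdac4, at -2.39 against -2.59 (difference 0.20, SE 0.22). With the trend removed 15 regulators had a higher effect in the second set (13.4%) and 2 a lower one (15.5%). Those 2 were Smarca2 (-0.44, edgeR adjusted p = 0.00396) and Myt1l (-0.38, edgeR adjusted p = 0.0244). The difference of Hdac2 then did not pass (-0.28, edgeR adjusted p = 0.0925), nor did those of Chd7, Ehmt2, Smarca4, Med13l and Auts2. Among PM libraries alone 23 regulators were higher in the second set (24.9%) and 2 lower, Hdac2 and Myt1l (22.8%). Among Vehicle libraries 0 regulators and 0 of all tested genes differed between sets by edgeR (0%), 0 regulators and 535 of 14982 genes had an unadjusted p under 0.05, and DESeq2 called 0 regulators and 16 genes.

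**Figure D5:**
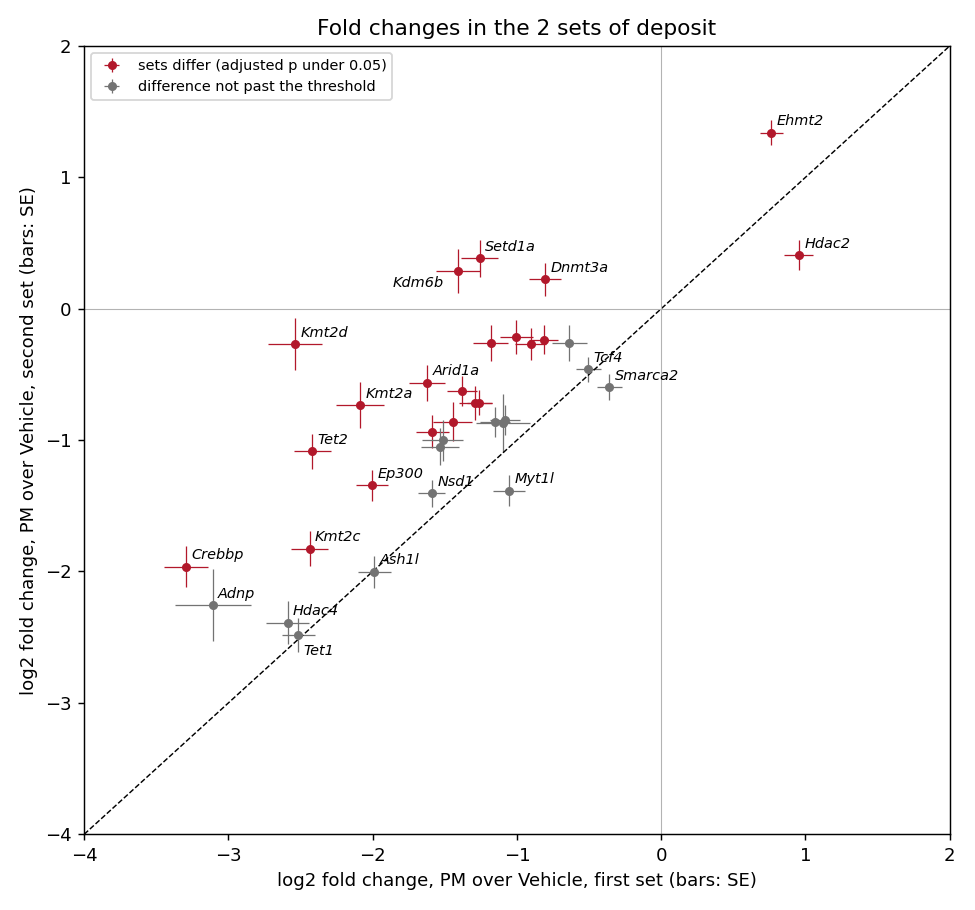
Log2 fold change of PM over Vehicle in the second set (vertical axis) against the first set (horizontal axis) for the 35 regulators with SE bars, red where the difference between sets passed the test, and a dashed line of equal effect. Most points lie above the line, with Kmt2d at -0.27 in the second set, against -2.54 in the first, and Hdac2 lies below it.

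Complex partners and relatives of the regulators, 135 genes in 11 lists of which 132 were tested, moved in both directions. Of these, 72 were lower (36.4% of all tested genes), 29 higher (32.7%) and 31 did not pass, with a median log2 fold change of -0.40. With the trend removed 51 were lower, 29 higher and 52 did not pass (median -0.12), beside 28.6% of all tested genes lower and 34.5% higher (median 0.05). Histone demethylases were lower in 12 of 13 genes and 7 of 13 with the trend removed, and 3 were then higher. Phf8, a demethylase of repressive marks and an X-linked intellectual disability gene, was 20.3 CPM in PM and 54.0 CPM in Vehicle libraries, a log2 fold change of -1.44 (SE 0.12, edgeR adjusted p = 1.44e-07), and -0.69 with the trend removed. Mediator subunits were lower in 8 of 9, and in 6 of 9 with the trend removed, with Med12l, a kinase-module subunit, falling most as scaled (log2 fold change -2.59, SE 0.13, edgeR adjusted p = 4.00e-09, and -1.22 with the trend removed).

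The counts of the other lists are to be read beside the 36.4% lower and 32.7% higher of all tested genes as scaled, and the 28.6% lower and 34.5% higher with the trend removed. Values of single genes in these lists are log2 fold changes. In the NuRD list 8 of 12 were lower and 3 higher, and 6 and 5 with the trend removed. Gatad2b, a p66 subunit and a neurodevelopmental gene itself, was 16.2 ± 3.04 CPM in PM and 123 ± 12.6 CPM in Vehicle libraries, a 7.52-fold fall (log2 fold change -2.91, SE 0.12, edgeR adjusted p = 1.22e-09, and -1.88 with the trend removed), and Mta2 was 0.50 as scaled and 0.34 with the trend removed. COMPASS subunits were lower in 9 of 14 and higher in 3, and in 6 and 1 with the trend removed. The coactivator Ncoa6 was -1.83 as scaled and -0.97 with the trend removed, and the core scaffold Wdr5 0.75 as scaled and 0.69 with the trend removed.

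BAF subunits beyond the members split into 9 lower and 8 higher of 23, near the shares of all genes, and 5 and 5 with the trend removed. Dpf3 was -1.22 as scaled and -1.35 with the trend removed, and Bcl7c 1.80 as scaled and 1.04 with the trend removed. PRC2 subunits had 3 lower and 3 higher of 10, again near those shares, and 1 lower and 5 higher with the trend removed. Jarid2 was -1.10 as scaled and -0.40 with the trend removed, and the histone chaperone Rbbp4 0.71 as scaled and 1.23 with the trend removed. DNA methylation readers and partners had 4 lower and 4 higher of 12 tested, and 3 and 2 with the trend removed. Mbd5 was -2.09 as scaled and -0.91 with the trend removed, and Gadd45b, which takes part in active demethylation in neurons, 1.75 as scaled and 0.93 with the trend removed.

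Other deacetylases and corepressors were lower in 6 of 13 and higher in 3, and in 4 and 2 with the trend removed. The corepressor Ncor1 was -1.58 as scaled and -0.43 with the trend removed, and Hdac11 1.16 as scaled and 0.71 with the trend removed. Other acetyltransferases were lower in 3 of 7 and higher in 2, and in 4 and 2 with the trend removed. Kat6a was -1.64 as scaled and -0.44 with the trend removed, and Kat8 0.83 as scaled and 0.36 with the trend removed. Other histone methyltransferases and heterochromatin readers were lower in 4 of 8 tested and higher in 2, and in 3 and 2 with the trend removed. Setd2, which trimethylates histone H3 lysine 36, was -1.60 as scaled and -0.41 with the trend removed, and Cbx3, an HP1 protein, 0.82 as scaled and 0.87 with the trend removed. Related transcription factors were lower in 6 of 11 and higher in 1, in both fits. Tcf3, an E protein related to Tcf4, was 0.51 as scaled and 0.056 with the trend removed, where it did not pass, and the other partner genes named kept their direction and their call.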

How the data were processed

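RNA sequencing of hippocampus was analysed in 11 libraries, 6 PM and 5 Vehicle. The deposited files hold raw read counts per gene symbol, as whole numbers without normalization. HTSeq 0.9.1, SAMtools 1.9, Picard 2.9.2, STAR, Trimmomatic 0.36 and FastQC 0.11.9 are listed as tools, and mm10 and a human genome as builds, per the submitters' processing notes. The sources used here give no strand setting. RNA was depleted of ribosomal RNA per the labels' protocols, whereas the molecule field names polyA RNA. Rows that name no gene (no feature, ambiguous, not unique) stayed out of library sizes and tests; no feature took 18.8% to 34.0% of counts in PM and 60.9% to 62.0% in Vehicle libraries, ambiguous reads 1.21% to 1.42% in PM and 0.538% to 0.582% in Vehicle libraries, and not unique alignments 7.22% to 9.90% in PM and 4.21% to 4.75% in Vehicle libraries. A count of 0 allows up to 3 counts, or 0.169 to 0.499 CPM by library, for counting error only.

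Counts were tested with edgeR 4.0.16 in R 4.3.3 (TMM scaling, filterByExpr with a minimum count of 10, robust quasi-likelihood test, two-sided, set of deposit as covariate), and p-values were adjusted by Benjamini-Hochberg over the 14982 tested genes (threshold 0.05). The SE was computed as the absolute log2 fold change over the square root of the F statistic. Effects by set and their difference came from a joint fit of the 4 group-by-set cells. For the trend on transcript length and GC content, a spline with 5 degrees of freedom was fitted in each library on the longest transcript of GENCODE M21 (98.4% of symbols matched) and entered as an offset. Levels between genes are counts per kilobase scaled to a common total. DESeq2 1.42.0, other filters, covariates and left-out libraries were tried as alternatives. All 35 members are named, and of each partner list the gene with the largest fall and the one with the largest rise that passed, at a mean of 1 CPM or more. The largest fall among the related transcription factors is not reported here. The members and lists were chosen with earlier results of these data known. Libraries were compared within the same group and set, and those 10 pairs differed by more than sampling noise (lowest chi-square per degree of freedom 2.01), so none was merged. The scripts were tested on simulated data. There only 100 genes were changed at each size, in random directions and without a length or GC trend, unlike in the libraries here. The rates therefore hold for those simpler conditions. Under them the main test recovered 52% of 1.5-fold and 92% of 2-fold changes. The test of the difference between sets recovered 11% of 1.5-fold and 54% of 2-fold changes, so a difference that did not pass does not show equal effects.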

Additional observations from a re-analysis of the deposited data

Results flagged for a closer look

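The effect of PM as scaled differed between the sets of deposit, by the test of the difference itself, in 21 regulators. Values are the log2 effect as scaled in the second set minus that in the first. With the trend removed Chd7, Ehmt2, Smarca4, Med13l, Hdac2 and Auts2 did not pass. Among methyltransferases the differences were 2.27 for Kmt2d, 1.64 for Setd1a, 1.35 for Kmt2a, 0.79 for Ehmt1, 0.76 for Setd5, 0.61 for Kmt2c and 0.58 for Ehmt2. Among remodellers they were 1.06 for Arid1a, 0.92 for Chd7, 0.64 for Chd8, 0.58 for Smarca4 and 0.55 for Bcl11a. Kdm6b gave 1.69, Crebbp 1.33, Tet2 1.33, Dnmt3a 1.03, Ep300 0.66, Auts2 0.65, Med13l 0.59 and Pogz 0.57, whereas Hdac2 gave -0.55. In PM libraries the share of counts with no feature was 29.3% to 34.0% in the second set and 18.8% to 21.4% in the first. Its part in these differences was not tested.

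Smarca2 had 319.7 CPM in Vehicle replicate 4, which stood apart from the other 4 Vehicle libraries. Chance flags about 1 in 20 groups in this way.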

How the results depend on the processing

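The count of regulators lower in PM (31) was 18 with the length and GC trend removed and 13 with that trend removed and a replicate block, and the count higher (2) was 7 and 5 under these and 5 in the second set fitted alone. Over all genes the trend with block gave 3643 lower and 4510 higher, and Pogz, Setd5, Tet2, Med13l, Myt1l, Chd2 and Chd7, called with the trend removed, did not pass there. The median (-1.05) was -0.22 and -0.25 under the first pair, and lower partner genes (72) were 41 under the second of them. With the trend removed the sign turned for Chd2 (0.15), Chd7 (0.34), Chd8 (0.42), Kmt2a (0.029), Nsd1 (0.015), Dnmt3a (0.66), Smarca2 (0.11), Foxp1 (0.053) and Tcf4 (0.84), and with the block added they were 0.14, 0.37, 0.40, 0.0040, 0.037, 0.66, 0.13, 0.0047 and 0.83. In the second set alone Setd1a was 0.39, Dnmt3a 0.23 and Kdm6b 0.30. Kmt2d did not pass without the set covariate (-1.04, edgeR adjusted p = 0.0547), nor did Kdm6b (-0.44), which was also lost without the low-count filter (-0.59) and under the replicate block (-0.78). Setd1a passed with the DESeq2 test (-0.53, adjusted p = 0.0411). The cause was not tested.

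Leaving out 1 library at a time gave 30 to 33 regulators lower, 2 higher, a median of -1.15 to -0.99, 5021 to 5435 genes lower and 4657 to 5096 higher over all, 67 to 74 partner genes lower and 27 to 31 higher, and 14 (without Vehicle replicate 5) to 25 (without PM replicate 1) regulators whose effect differed between sets. The replicate numbers were not taken as pairs in the main fit. Deviations of same-numbered libraries correlated at 0.018, -0.023, -0.16, -0.20 and -0.15. With 2 or 3 libraries per group and set, these values cannot show whether the samples were paired. The replicate block gave 30 regulators lower, 2 higher and a median of -1.08, and 4890 genes lower and 4318 higher over all. Depth limits Adnp and Ezh2 most, with few counts per library.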

Other observations

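Within Auts2 lies a gene on the opposite strand, 4930563F08Rik, picked out after its values were seen. It had 7 counts in all 6 PM libraries together and 405 in the 5 Vehicle libraries together, or 0.089 ± 0.178 CPM in PM and 8.05 ± 0.744 CPM in Vehicle libraries (SD, n = 6 and n = 5). Inside Myt1l, C630031E19Rik was 3.86 ± 2.15 CPM in PM and 13.1 ± 1.92 CPM in Vehicle libraries (log2 fold change -1.97, edgeR adjusted p = 1.29e-05), and inside Tet3, B230319C09Rik was 0.544 ± 0.195 CPM in PM and 1.75 ± 0.368 CPM in Vehicle libraries (log2 fold change -1.72, edgeR adjusted p = 1.49e-04). Since the sources used here give no strand setting, reads from unspliced RNA of the host gene cannot be told apart from reads of these genes.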
